A study of Homo sapiens with 6 samples.

Results

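The SOX genes encode transcription factors that bind DNA through an HMG box, a domain that bends the double helix, and they are sorted by sequence into subgroups lettered A to H. Described here are 9 of these genes that lie outside the SOXE subgroup of SOX8, SOX9 and SOX10, namely SOX2 of SOXB, SOX4, SOX11 and SOX12 of SOXC, SOX5, SOX6 and SOX13 of SOXD, and SOX7 and SOX18 of SOXF. They were chosen by name from the 58721 gene rows of the count table, and 8 of the 9 had enough reads to be among the 19263 genes tested; SOX7 did not. RNA was sequenced from A375, an established human melanoma line with a mutant BRAF gene that was cultured in DMEM containing fetal bovine serum. The knockout cells carried a guide RNA against SOX10 and are labelled as its knockout (3 libraries); the control cells carried a guide against mCherry, a fluorescent protein gene absent from the human genome, and are labelled as wild type (3 libraries). The sources used here do not give where in SOX10 the guide cuts, nor whether a clone or a pool was sequenced. Separate cultures are not stated for the replicates, so each p-value reflects the spread among these 6 libraries alone, and that spread may be technical.

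SOX10 is the SOXE factor that specifies and maintains melanocytes and Schwann cells. The other subgroups are known mostly from other settings: SOXB factors keep neural progenitors undifferentiated, SOXC factors act in progenitors that begin to differentiate, SOXD factors assist SOX9 in cartilage, and SOXF factors act in the endothelium. SOXD proteins lack a transactivation domain of their own. In the mouse, Sox5 modulates the activity of Sox10 in melanocyte development, and Sox2 opposes differentiation of the Schwann and melanocyte lineages.

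The targeted gene was examined first. SOX10 stood at 47.2, 47.8 and 41.5 CPM (counts scaled to library size) in knockout libraries 1, 2 and 3, against 241, 237 and 223 CPM in control libraries 1, 2 and 3. Each knockout library held between 17.7% and 20.4% of the control mean. An exact two-sided permutation test of log2 CPM gave p = 0.1, the smallest that 3 libraries against 3 allow, and the fit across all genes gave a log2 fold change of -2.36 (SE 0.08, adjusted p = 1.84e-07 by edgeR's quasi-likelihood test with the Benjamini-Hochberg method, as for every adjusted p below). The other SOXE genes diverged: SOX9 stood at 69.7 ± 7.02 CPM in knockout and 2.00 ± 0.228 CPM in control libraries (SD, n = 3 each), and SOX8 had 0, 0 and 2 counts in knockout and 16, 39 and 31 counts in control libraries.

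Library totals lay between 70075002 and 78148565 counts, at which 3 counts, taken as the floor per library, amount to 0.0383 to 0.0417 CPM. Over all 19263 tested genes, 14.0% fell and 14.0% rose at an edgeR adjusted p under 0.05. Of 9 melanocyte markers, which include SOX10 itself, 4 fell and 2 rose (1 rose without control library 1 or 3 or knockout library 1). Of the 8 tested, 2 passed the filter on low counts through one group alone, and with at least 1 CPM in 3 libraries 1 of 5 rose. The summed level of the 9 markers was 191 to 203 CPM in knockout and 333 to 347 CPM in control libraries. For the 8 without SOX10 it was 149 to 155 CPM in knockout and 107 to 110.0 CPM in control libraries. MITF made up most of that sum in both groups, and of the markers other than SOX10, 3 fell and 2 rose. S100B (log2 fold change -4.68, edgeR adjusted p = 1.17e-07) and DCT (log2 fold change -4.59, edgeR adjusted p = 5.45e-06) fell furthest. The lineage regulators MITF (138 ± 2.29 CPM in knockout, 57.5 ± 2.15 CPM in control) and PAX3 (11.5 ± 0.684 CPM in knockout, 15.0 ± 0.952 CPM in control) were present in all libraries. Pigment genes were scarce, with PMEL and MLANA at or below 1.24 CPM in every library and TYR at 1 count in 1 control library and 0 in the others. Marker genes of some other cell types differed between the groups too, and their part in the results below was not tested. Of 9 fibroblast markers 7 rose (4 without control library 1 or without knockout library 1), but 4 of the 9 passed the filter on low counts through one group alone, and with at least 1 CPM in 3 libraries 4 of 6 rose. Their summed level was 26.9 to 29.5 CPM in knockout and 15.1 to 18.7 CPM in control libraries. Of 8 keratinocyte and epithelial markers, 4 of them tested, 2 rose (1 without control library 2 or without knockout library 1) and 1 fell. Here 2 of the 4 passed the filter through one group alone, and with at least 1 CPM in 3 libraries 0 of 2 rose; the summed level was 52.5 to 66.9 CPM in knockout and 48.3 to 64.4 CPM in control libraries, with KRT1 at 0. Of 6 immune markers, 2 of them tested, 1 fell (1.52 to 2.28 CPM in knockout, 10.8 to 14.3 CPM in control libraries). Since these are bulk samples, fewer cells of a type and less RNA per cell cannot be told apart.

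Of the 8 tested SOX genes, 5 were lower in knockout libraries: SOX2, SOX11, SOX5, SOX6 and SOX18. None was higher in edgeR, in DESeq2 or in limma-voom, and none at an unadjusted edgeR p under 0.05. Over all 19263 tested genes, 28.0% passed the threshold of 0.05 on the adjusted p, 14.0% lower and 14.0% higher. Without knockout library 2 the lower genes numbered 1794, against 2702 with it. The median log2 fold change of the 8 genes was -1.05, beside -0.02 over all tested genes. In 6 of the 8, every knockout library lay on one side of every control library, against 41.6% of all tested genes. The SOXC and SOXD subgroups were each divided: SOX11 fell while SOX4 and SOX12 did not pass the test, and SOX5 and SOX6 fell while SOX13 did not pass.

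**Figure D1:**
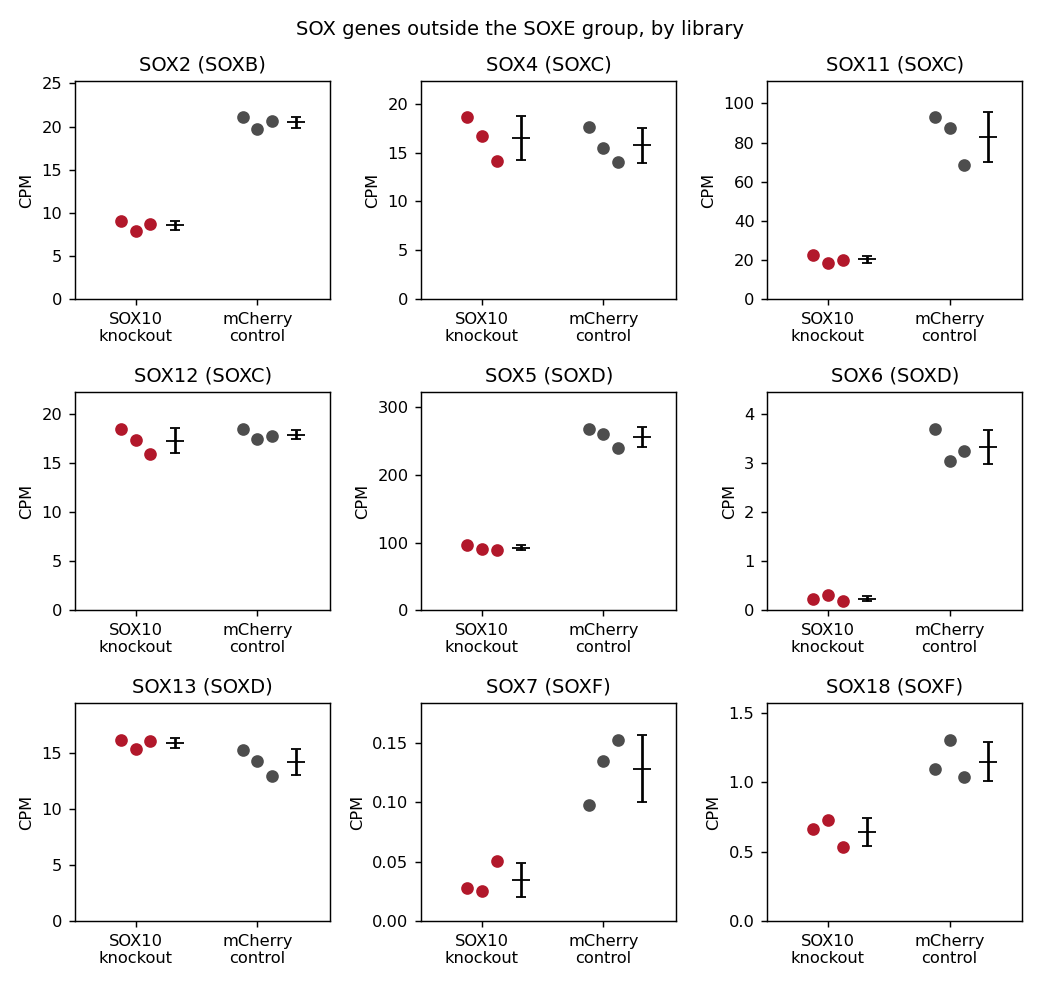
CPM of each of the 9 SOX genes in the 3 SOX10 knockout libraries (red, left) and the 3 mCherry control libraries (grey, right), with the mean and SD beside the points and a separate linear axis from 0 for each gene. SOX2, SOX11, SOX5, SOX6, SOX7 and SOX18 are lower in every knockout library than in any control library, SOX4 and SOX12 overlap, and the 3 knockout values of SOX13 lie just above its control values.

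SOX2, the SOXB member, is a pluripotency and neural progenitor factor encoded by a gene with a single exon (ENSG00000181449; GRCh38 chromosome 3, 181711924 to 181714436, plus strand). It stood at 9.05, 7.93 and 8.66 CPM in knockout libraries 1, 2 and 3, against 21.1, 19.8 and 20.6 CPM in control libraries 1, 2 and 3. The groups did not overlap, and the spread within each group was small, with SDs of 0.566 CPM in knockout and 0.666 CPM in control libraries. SOX2 fell to 41.7% of the control mean (log2 fold change -1.26, SE 0.08, edgeR adjusted p = 4.95e-06). SOX2 lies inside an intron of SOX2-OT, a long non-coding RNA gene of the same strand with which it shares no exonic base in GENCODE. SOX2-OT had 9, 8 and 16 counts in knockout libraries, against 52, 50 and 54 counts in control libraries. It was also lower, with a log2 fold change of -2.30 and an SE of 0.30 (edgeR adjusted p = 5.20e-04).

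The core that SOX proteins recognise, AACAAT or ACAAAG, was searched on both strands in the 250 bases before each RefSeq gene start (GRCh38.p14), where 8.99% and 13.7% of 34943 windows hold them. The table had windows for 6 of the 9 genes. The SOX2 window, chr3:181711675-181711924 on the plus strand, is shown because SOX2 fell. It held ACAAAG once, in capitals here, starting 220 bases before the gene start.
SOX2: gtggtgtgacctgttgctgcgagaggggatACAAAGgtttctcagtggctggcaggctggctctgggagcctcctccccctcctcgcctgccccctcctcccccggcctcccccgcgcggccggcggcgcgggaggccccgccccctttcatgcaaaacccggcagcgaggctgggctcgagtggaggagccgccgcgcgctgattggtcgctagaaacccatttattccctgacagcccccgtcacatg
A match is a description of the letters and shows no binding.

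Of the SOXC genes, which share a closely similar HMG box and a C-terminal activation domain, SOX11 changed. SOX11 (ENSG00000176887; chromosome 2, 5692667 to 5701385, plus strand), known from developing neurons and from mantle cell lymphoma, stood at 22.5, 18.5 and 19.8 CPM in knockout libraries 1, 2 and 3. In control libraries 1, 2 and 3 it stood at 92.8, 87.5 and 68.4 CPM. The lowest control library was thus well above the highest knockout library, although the control libraries spread more (SD 12.9 CPM, against 2.02 CPM in the knockout). SOX11 fell to 24.4% of the control mean (log2 fold change of -2.03 with an SE of 0.13, edgeR adjusted p = 6.01e-06). An overlapping non-coding gene on its strand, ENSG00000242540, shares 74 exonic bases with it and had 12, 20 and 9 counts in knockout and 11, 8 and 15 counts in control libraries (edgeR adjusted p = 0.782).

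SOX4 (ENSG00000124766; chromosome 6, 21592768 to 21598619, plus strand), a factor of many progenitor cells and tumours, stood at 18.6, 16.7 and 14.2 CPM in knockout and 17.6, 15.5 and 14.1 CPM in control libraries. The groups overlapped almost completely, and in both the highest value was in library 1 and the lowest in library 3. The log2 fold change was 0.07, with a 95% interval of -0.21 to 0.34 (edgeR adjusted p = 0.736). SOX12 (ENSG00000177732; chromosome 20, 325595 to 330224, plus strand), the most broadly expressed SOXC gene, stood at 18.6, 17.4 and 16.0 CPM in knockout and 18.5, 17.5 and 17.8 CPM in control libraries. Its groups overlapped as well, and the interval of its log2 fold change, -0.23 to 0.12, leaves out a change in either direction as large as that of SOX2 (-0.05, edgeR adjusted p = 0.665). NRSN2-AS1, which overlaps SOX12 on the opposite strand but shares no exonic base with it, was higher, at 3.79 ± 0.438 CPM in knockout and 2.61 ± 0.197 CPM in control libraries (edgeR adjusted p = 0.0118). The window before SOX12, chr20:325302-325551 on the plus strand, is given beside that of SOX2 as one of a gene that did not pass the test. It held neither motif, nor did the windows of SOX4 and SOX13.
SOX12: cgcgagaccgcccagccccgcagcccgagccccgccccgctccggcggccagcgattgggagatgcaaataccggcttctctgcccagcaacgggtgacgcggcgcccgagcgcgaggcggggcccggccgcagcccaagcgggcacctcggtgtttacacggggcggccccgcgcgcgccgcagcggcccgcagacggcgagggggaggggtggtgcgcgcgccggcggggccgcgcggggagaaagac
The SOX12 window had a GC content of 79.2% and 42 CG dinucleotides, the SOX2 window 68.8% and 20.

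The SOXD genes include SOX5, which had the highest length-corrected level of the 9, and SOX6, which had the lowest log2 fold change of the 8 tested. SOX5 (ENSG00000134532; chromosome 12, 23529500 to 24562544, minus strand), the partner of SOX6 in cartilage formation, stood at 97.1, 91.1 and 89.8 CPM in knockout libraries 1, 2 and 3, against 269, 261 and 239 CPM in control libraries 1, 2 and 3. The values within a group lay close together and those of the groups far apart. SOX5 fell to 36.2% of the control mean, a log2 fold change of -1.47 with an SE of 0.07 (edgeR adjusted p = 1.07e-06).

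SOX6 (ENSG00000110693; chromosome 11, 15966449 to 16739591, minus strand), which dimerises with SOX5 in cartilage and silences fetal globin genes in red cell precursors, was already low. It had 16, 24 and 15 counts in knockout libraries 1, 2 and 3, or 0.222, 0.306 and 0.191 CPM. In control libraries 1, 2 and 3 it had 267, 226 and 234 counts, or 3.71, 3.05 and 3.24 CPM. All knockout libraries stayed above the floor of 3 counts, and SOX6 fell 13.9-fold. Its log2 fold change of -3.78 (SE 0.20, edgeR adjusted p = 2.17e-06) was lower than all but 0.633% of tested genes. SOX6 shares 219 exonic bases with C11orf58 on the opposite strand, and it is not stated whether counting used strand, so a part of these reads may not be separable. C11orf58 stood at 192 ± 16.5 CPM in knockout and 194 ± 22.7 CPM in control libraries (log2 fold change -0.02, not called, edgeR adjusted p = 0.933).

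SOX13 (ENSG00000143842; chromosome 1, 204073115 to 204127743, plus strand), a partner of TCF factors that is known from T cells in the mouse, stood at 16.2, 15.4 and 16.1 CPM in knockout libraries. It stood at 15.3, 14.4 and 13.0 CPM in control libraries. The groups did not overlap but nearly touched, and the difference was not called (log2 fold change 0.16, 95% interval -0.02 to 0.34, edgeR adjusted p = 0.184).

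The windows before SOX5 and SOX6 are shown because both genes fell. For SOX5 the table had 1 window, chr12:24562492-24562741 on the minus strand. It held ATTGTT, the reverse complement of AACAAT, once (capitals), starting 179 bases before the gene start. For SOX6 it had 5 windows, 3 of which held a motif. The window nearest the GENCODE start of SOX6, chr11:16738478-16738727, held neither motif. The window shown here, chr11:16356547-16356796 on the minus strand, lies further inside the gene and held 4 matches (capitals). Gene counts do not show which of these starts was used.
SOX5: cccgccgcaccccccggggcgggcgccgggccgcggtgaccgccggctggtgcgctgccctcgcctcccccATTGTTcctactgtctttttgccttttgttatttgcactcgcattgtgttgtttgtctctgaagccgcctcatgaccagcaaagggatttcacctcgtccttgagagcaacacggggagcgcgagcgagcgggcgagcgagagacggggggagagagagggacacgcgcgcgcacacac
SOX6: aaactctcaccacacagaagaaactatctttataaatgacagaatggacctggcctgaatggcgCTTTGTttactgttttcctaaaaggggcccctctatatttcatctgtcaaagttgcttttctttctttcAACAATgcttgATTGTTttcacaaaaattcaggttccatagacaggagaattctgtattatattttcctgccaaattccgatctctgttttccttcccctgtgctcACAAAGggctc
The 4 matches in the SOX6 window start 117 bases (AACAAT), 106 bases (ATTGTT), 11 bases (ACAAAG) and 186 bases (CTTTGT) before that gene start. It is the SOX6 window with the most matches, and the other genes with windows had 1 each. Its GC content was 39.2%, that of the SOX5 window 65.6%. The part of base composition and window number in these matches was not tested.

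**Figure D2:**
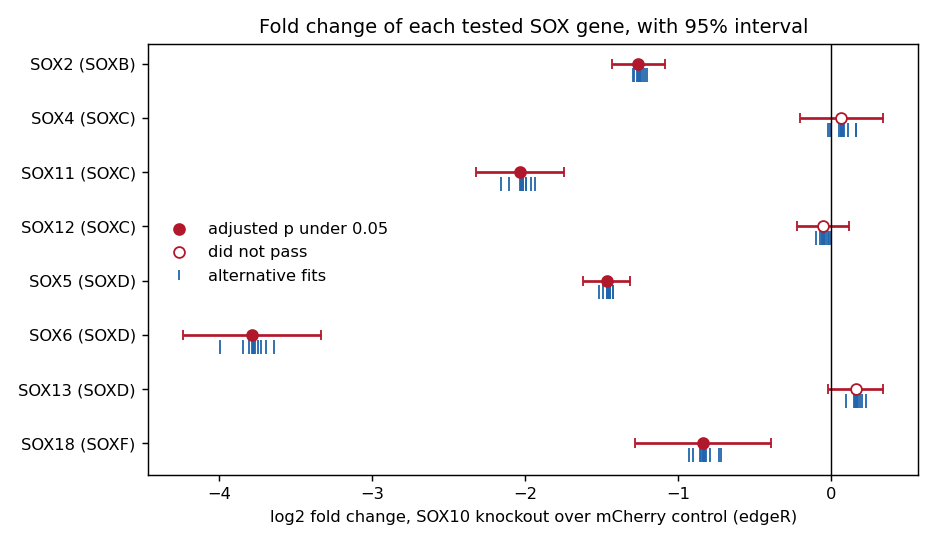
Log2 fold change (SOX10 knockout over mCherry control, edgeR) of the 8 tested SOX genes by subgroup, as points with 95% intervals, filled where the adjusted p was under 0.05, and blue ticks for the 13 alternative fits. SOX6 lies lowest at -3.78, followed by SOX11 at -2.03, while the intervals of SOX4, SOX12 and SOX13 cross 0.

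The SOXF genes, which act in blood and lymph vessel endothelium, had few reads. SOX18 (ENSG00000203883; chromosome 20, 64047582 to 64049641, minus strand) had 48, 57 and 42 counts in knockout libraries 1, 2 and 3, or 0.667, 0.728 and 0.536 CPM. In control libraries 1, 2 and 3 it had 79, 97 and 75 counts, or 1.10, 1.31 and 1.04 CPM. The groups did not overlap, and SOX18 fell to 56.0% of the control mean, with a log2 fold change of -0.84 and an SE of 0.19 (edgeR adjusted p = 0.0127). The call rested on control library 2: without it the adjusted p was 0.0595 and the log2 fold change -0.73.

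SOX7 (ENSG00000171056; chromosome 8, 10723768 to 10730512, minus strand) had 2, 2 and 4 counts in knockout libraries 1, 2 and 3, against 7, 10 and 11 counts in control libraries 1, 2 and 3. All knockout libraries lay below all control libraries, but with so few reads SOX7 was not tested. The summed counts, 8 in knockout and 28 in control libraries, give a ratio of 0.273 with an exact 95% interval of 0.107 to 0.614 that covers counting error only. It entered 5 of the 13 alternative fits. Its adjusted p was 0.0762 in edgeR with no filter on low counts, and it passed without control library 1 (0.0399) and without knockout library 3 (0.0403) but not without knockout library 1 (0.0784) or 2 (0.102). SOX7 shares 1268 of its 3216 exonic bases with a second gene model listed as PINX1 on the same strand, which had 0 counts in all libraries, so reads from that stretch may have been left uncounted.

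Among 8 endothelial markers, 4 of them tested, 2 rose and none fell in edgeR, DESeq2 or limma-voom (1 was lower at an unadjusted edgeR p under 0.05, and 1 fell without knockout library 1). Over all tested genes, 14.0% rose and 14.0% fell. The median log2 fold change of the 4 tested markers was 1.06. It was -0.20 over 6 genes with no filter, and 1.97 over 3 genes with at least 1 CPM in 3 libraries. The summed level of the 8 markers was 3.93 to 4.57 CPM in knockout and 2.29 to 2.45 CPM in control libraries. Those that rose were CDH5, at 1.96 ± 0.0579 CPM in knockout and 0.431 ± 0.121 CPM in control libraries, and PECAM1, at 1.13 ± 0.156 CPM in knockout and 0.293 ± 0.0877 CPM in control libraries, both junction proteins of endothelium. ERG and CLEC14A, also defining markers, had 0 counts in all 6 libraries. The endothelial sum was therefore higher in the libraries in which SOX18 was lower, and its part in that result was not tested.

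Levels of different genes were compared per length, as TPM (counts divided by the merged exon length and scaled to the same total in each library). SOX5 led in every library, with 32.5 ± 2.71 TPM in knockout and 88.4 ± 10.6 TPM in control libraries (SD, n = 3 each). In the knockout it was followed by SOX12 (13.7 ± 1.59 TPM), SOX2 (12.5 ± 1.15), SOX4 (10.4 ± 1.82), SOX11 (8.53 ± 1.15) and SOX13 (7.85 ± 0.440 TPM). The library ranges of each neighbouring pair among these 5 overlapped, although within each knockout library the order by merged exons was the same. In control libraries SOX11 (34.4 ± 7.26 TPM) and SOX2 (29.3 ± 2.15 TPM) came next after SOX5, with overlapping ranges. They were followed, without overlap between neighbours, by SOX12 (13.9 ± 1.10), SOX4 (9.71 ± 1.66), SOX13 (6.92 ± 0.990) and SOX18 (2.22 ± 0.349 TPM). SOX11 thus ranked 5 among the 9 in every knockout library and 2 or 3 in each control library.

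SOX18 (1.27 ± 0.226 TPM in the knockout), SOX6 (0.0448 ± 0.0115 TPM in knockout, 0.612 ± 0.0892 TPM in control) and SOX7 (0.0393 ± 0.0144 TPM in knockout, 0.142 ± 0.0242 TPM in control) closed the order in both groups. The 9 genes together summed to 86.8 ± 8.64 TPM in knockout and 186 ± 23.7 TPM in control libraries. SOX5 made up 37.5% ± 0.589 of that sum in knockout and 47.7% ± 0.488 in control libraries. SOX11 made up 9.81% ± 0.532 in knockout and 18.4% ± 1.70 in control libraries, and SOX12 15.8% ± 0.503 in knockout and 7.55% ± 0.452 in control libraries. With the longest transcript in place of merged exons, SOX13 moved to 11.9 TPM in the knockout, second after SOX5. In control libraries SOX13 then stood at 10.5 TPM, beside SOX12 (10.3 TPM, with overlapping ranges) and above SOX4 (7.14 TPM). By the same length SOX6 moved to 0.0730 TPM in knockout and 0.997 TPM in control libraries.

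**Figure D3:**
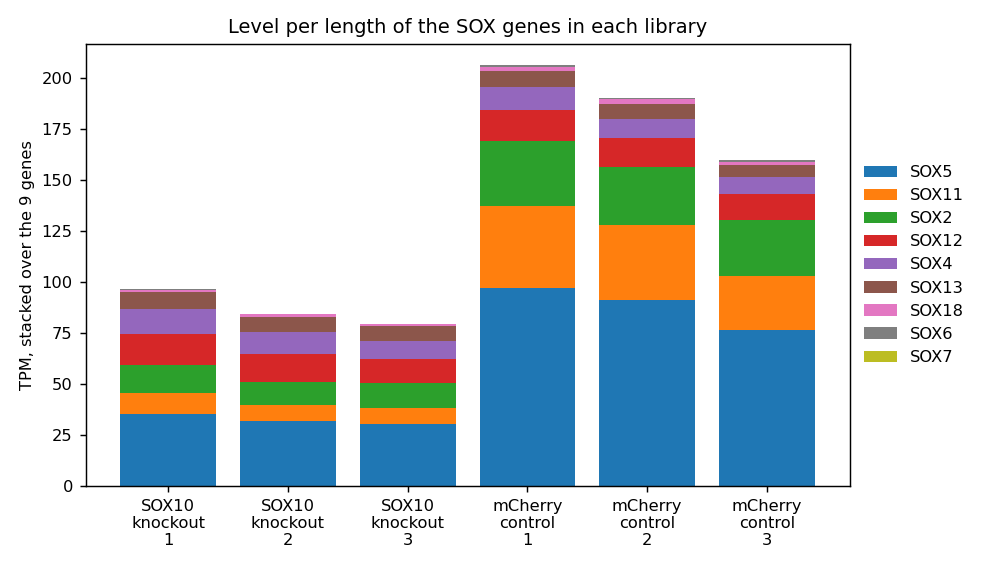
TPM of the 9 SOX genes stacked in each library, SOX10 knockout on the left and mCherry control on the right. The stacks reach 79.6 to 96.4 TPM in knockout and 159.8 to 206 TPM in control libraries, and SOX5 is the largest block in all 6.

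Of 7 other SOX genes outside SOXE, SOX15 alone had enough reads to be tested. SOX3, SOX14 and SOX17 had 0 counts in all libraries, and SOX1 and SOX21 at most 1 count in any. SOX30 had 13, 10 and 10 counts in knockout and 7, 4 and 8 counts in control libraries. SOX15, the SOXG gene, stood at 1.37 ± 0.257 CPM in knockout and 1.34 ± 0.223 CPM in control libraries (log2 fold change 0.03, not called, edgeR adjusted p = 0.931).

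Genes linked to each subgroup were then counted. Beside each list stand the shares over all 19263 tested genes, 14.0% lower and 14.0% higher. Of 13 genes of the SOX2 network, 8 were tested, of which 6 fell and 1 rose, with a median log2 fold change of -1.96. The 6 that fell include SOX2-OT, described above at the SOX2 locus. The intermediate filament gene of neural progenitors, NES, stood at 15.2 ± 1.94 CPM in knockout and 192 ± 39.6 CPM in control libraries (log2 fold change -3.66, edgeR adjusted p = 1.06e-06). POU3F2, a POU factor that partners SOX2 in neural cells, stood at 6.65 ± 0.734 CPM in knockout and 47.8 ± 5.31 CPM in control libraries. LIN28B, which blocks let-7 maturation, rose slightly to 28.4 ± 1.06 CPM in knockout, against 24.6 ± 0.168 CPM in control libraries (edgeR adjusted p = 0.0345). That call was lost with no filter on low counts and when any of 5 libraries was left out, all but knockout library 1. The pluripotency genes NANOG, LIN28A, FGF4 and UTF1 had at most 2 counts in any library. POU5F1, a pluripotency factor too, had 6 to 13 counts in knockout and 9 to 15 counts in control libraries (edgeR adjusted p = 0.682), and SALL4, another, fell to 7 to 21 counts in knockout, against 32 to 51 counts in control libraries (edgeR adjusted p = 0.0150). Of the 8 tested genes, 3 passed the filter through one group alone, and with at least 1 CPM in 3 libraries 3 of 4 fell, while the median with no filter was -1.03 over 12 genes.

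Of 8 SOXC-linked genes, 6 were tested, 3 fell and 1 rose (2 with scaling by total counts), by small amounts (median -0.24). The share over all tested genes was 14.0% in each direction. TEAD2, a TEAD factor that SOXC proteins activate in mouse progenitors, stood at 6.57 ± 0.702 CPM in knockout and 11.4 ± 0.168 CPM in control libraries (log2 fold change -0.79, edgeR adjusted p = 2.75e-04). EZH2, a histone methyltransferase, stood at 76.9 ± 3.66 CPM in knockout and 107 ± 3.82 CPM in control libraries. SEMA3C, a secreted guidance protein, rose to 175 ± 3.04 CPM in knockout, against 134 ± 5.66 CPM in control libraries. Of the neuronal genes, DCX had 0 counts in all libraries, and TUBB3 stood at 5.84 ± 0.392 CPM in knockout and 4.93 ± 0.344 CPM in control libraries (edgeR adjusted p = 0.0964).

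Of 15 SOXD-linked genes, mostly genes of cartilage matrix, 11 were tested. Of these 8 fell and none rose in edgeR, DESeq2 or limma-voom, or at an unadjusted edgeR p under 0.05, and the median was -2.27. Over all tested genes, 14.0% fell and 14.0% rose. COL9A3, a chain of type IX collagen, stood at 17.1 ± 0.616 CPM in knockout and 57.7 ± 3.41 CPM in control libraries (log2 fold change -1.75, edgeR adjusted p = 5.20e-07). HAPLN1, which links proteoglycan to hyaluronan, stood at 60.5 ± 6.26 CPM in knockout and 292 ± 39.6 CPM in control libraries. Of the 11, 4 passed the filter through one group alone. With at least 1 CPM in 3 libraries the median was -1.995 over 8 genes, and with no filter it was -1.75 over 15 genes. Over the 13 alternative fits, 6 to 8 genes of this list fell and none rose. The corepressor partners CTBP2 and HDAC1 and the SOX13 partner TCF7 are in the list as well; of these CTBP2 alone passed (log2 fold change -0.17, edgeR adjusted p = 0.0423).

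Of 15 SOXF-linked genes, 10 were tested, 4 fell and 1 rose (median -0.20), where 14.0% of all tested genes fell and 14.0% rose. KDR, the main VEGF receptor of endothelium, stood at 0.175 ± 0.128 CPM in knockout and 6.32 ± 1.10 CPM in control libraries. Its counts were 2, 20 and 19 in knockout libraries 1, 2 and 3, the first of them below the floor of 3 counts. KDR was the 1 gene of the 10 that passed the filter on low counts through one group alone. MEF2C, which binds SOX18 in endothelial cells, stood at 4.92 ± 0.411 CPM in knockout and 11.5 ± 1.12 CPM in control libraries (log2 fold change -1.22, edgeR adjusted p = 4.05e-05). NR2F2, a nuclear receptor of veins and lymphatics, rose to 184 ± 17.2 CPM in knockout, against 97.0 ± 8.14 CPM in control libraries. The median of this list changed sign with no filter on low counts (0.10 over 15 genes) and was -0.38 with at least 1 CPM in 3 libraries. Without control library 1 or 3 or knockout library 2 it was -0.10, -0.07 and -0.09, without control library 2 -0.11, and in each of these 4 fits 2 genes rose.

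**Figure D4:**
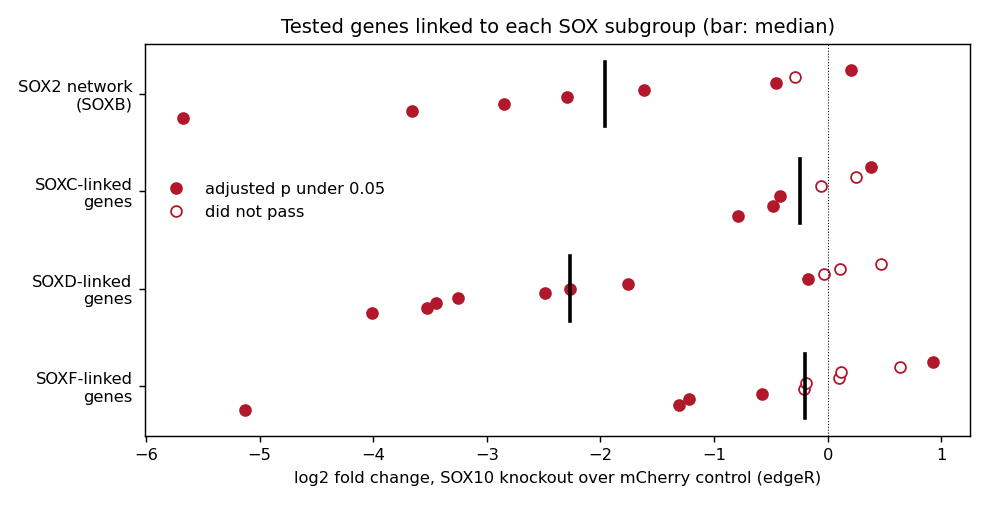
Log2 fold change (SOX10 knockout over mCherry control, edgeR) of the tested genes linked to each SOX subgroup, filled where the adjusted p was under 0.05, with the list median as a black bar. The medians are -1.96 for the SOX2 network, -0.24 for SOXC, -2.27 for SOXD and -0.20 for SOXF.

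The protein-coding genes most like each lowered SOX gene were sought among 10124 with a mean of at least 5 CPM, by the root mean square difference of centred log2 CPM over the 6 libraries. For SOX2 these were MFSD12 (difference 0.0542), a cysteine importer of melanosomes, and RCAN3 (0.0609). For SOX5 they were ABHD17C (0.0396) and B4GALNT1 (0.0410), which makes complex gangliosides. For SOX11 they were the channel gene TRPV4 (0.0979) and EYA1 (0.102), and for SOX18 the lipid synthesis regulator SREBF1 (0.0860) and the zinc transporter gene SLC39A11 (0.0896). For SOX6 they were the transcription factor gene MAF (0.107) and NEDD9 (0.122), a scaffold of focal adhesions. All 6 libraries belong to a single contrast, so a gene with a similar fold change scores as alike.

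Sequence that these genes share with any other gene was sought in annotated transcripts, without examining reads. Of the 50-base windows in GENCODE transcripts of each gene, those also found in transcripts of another gene were none for SOX12 and SOX18, 0.0461% for SOX5, 0.288% for SOX11 and 0.984% for SOX13. The shares were 1.30% for SOX6, 2.03% for SOX2 and 2.09% for SOX4. SOX7 shared 38.9%, with PINX1 foremost.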

How the data were processed

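RNA was measured in 6 libraries of A375 cells, 3 per group as labelled. Per the labels' protocols, total RNA was column-purified and sequenced after a stranded mRNA preparation. The tools HISAT2 and HTSeq and the build hg38 come from the submitters' processing notes. Tool versions, annotation and HTSeq's strand mode were not given in the sources used here. The authors deposited raw counts per gene. All 58721 row identifiers were in GENCODE release 29 (GRCh38), which gave coordinates and exon lengths, and 58207 had a symbol. TPM and promoter steps ran in Python 3.11.15 (scipy 1.17.1, pandas 2.3.3, numpy 2.4.6), plots in matplotlib 3.10.9.

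In R 4.3.3, edgeR 4.0.16 compared the groups on raw counts (filterByExpr, TMM scaling, no covariates, quasi-likelihood test, two-sided), adjusted by Benjamini-Hochberg over 19263 genes with a threshold of 0.05. CPM uses TMM-scaled library sizes. The 95% intervals of fold changes come from that fit. The fit was tested on simulated data. Alternatives were DESeq2 1.42.0, limma-voom (limma 3.58.1), other scalings and filters, the replicate number as a block, each library left out, and transcript length for TPM. Replicates differed by more than sampling noise.

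The SOX genes and the linked gene lists, written from textbook knowledge, were chosen with earlier results of these data known. Named genes were the 9 SOX genes, SOX8, SOX9 and SOX10, other SOX genes, in each linked list the 2 with the smallest p in each direction past the threshold, the 2 most alike of each lowered SOX gene (log2 of CPM plus 0.1) and tested overlapping genes. NANOG, LIN28A, FGF4, UTF1, DCX, POU5F1, SALL4, TUBB3, CTBP2, HDAC1, TCF7, PINX1 and the markers were named after their values were seen. No rows were counting summaries. The level of 1 marker gene is not reported here.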

Additional observations from a re-analysis of the deposited data

How the results depend on the processing

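Over 13 alternative fits, SOX2 (-1.30 to -1.20), SOX11 (-2.15 to -1.94), SOX5 (-1.52 to -1.42) and SOX6 (-3.99 to -3.64) stayed past the threshold and lower in the knockout. SOX18 ranged from -0.93 to -0.72 over the fits that left out a library, and its call was lost in 1 of them; with SOX7, which passed in 2, the lower SOX genes numbered 4 to 6 over these fits. With the block 2 SOXC-linked genes rose instead of 1. SOX4 and SOX12 passed in none of the 13 and crossed 0 in some. With the replicate number as a block (replicate block), SOX13 passed (log2 fold change 0.16, adjusted p = 0.0241), so that 1 SOX gene was higher instead of 0, and calls over all genes grew to 4637 higher and 5176 lower, beside 2694 and 2702 without it. Same-numbered libraries deviated together for numbers 1 (r = 0.302) and 3 (r = 0.314) over 19263 genes but not for number 2 (r = -0.00438). With control libraries 1 and 3, knockout library 2 had r = -0.0366 and 0.0379, all too near 0 to tell its match. The numbers were therefore not taken to pair the libraries, but a batch shared by same-numbered libraries was not tested. Among alternative values for levels, linked lists and named genes, 401 kept the direction and call or stayed within the replicate spread, and 86 moved further, among them the SOXF-linked median, which turned positive with no filter (0.10). Depth limits SOX7 and, in the knockout, SOX6.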
